A study of Mus musculus with 16 samples.

Results

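The 83 protein-coding genes analysed here encode the proteins of the cytosolic ribosome in the mouse. They were chosen by symbol from the RefSeq annotation of the mm10 build, as Rpl or Rps plus digits and at most the letters a, x, l or y, with Rplp0, Rplp1, Rplp2, Rpsa and Fau, out of 21887 protein-coding genes on assembled chromosomes. Of these, 51 belong to the large and 32 to the small ribosomal subunit. The study mapped beta-hydroxybutyrylation of lysine 9 of histone H3 (H3K9bhb), a histone acylation derived from the ketone body beta-hydroxybutyrate, by chromatin immunoprecipitation and sequencing. Homogenate of occipital cortex was taken from C57BL/6J mice, at postnatal day 35, that were either fasted for 48 h or fed ad libitum. Each feeding state has 4 immunoprecipitated libraries and 4 of input DNA, 16 together, and the labels name no other treatment or allele. The authors deposited 2 lists of regions, one enriched in fasted mice (8404 regions) and one in fed mice (1 region). Each region carries a log likelihood ratio (log-LR), the authors' own value, for which the sources used here give neither log base nor cutoff. No value per library is in the lists, so the depth is unknown, no difference between mice could be tested, and every count below is a description of where the authors called a difference.

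Ribosomal proteins assemble with ribosomal RNA into a small subunit, which reads the messenger RNA, and a large subunit, which joins the amino acids. Their genes are short, are transcribed in nearly every cell and often carry small nucleolar RNA (snoRNA) genes in their introns. Their messenger RNAs typically begin with a C followed by a run of pyrimidines, the terminal oligopyrimidine tract, through which the nutrient-sensing kinase mTOR controls their translation. The genome also holds many processed pseudogenes copied from them.

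The stretch around the transcription start is shown for a few members, because the fasting-enriched regions lie just after it and because the pyrimidine tract begins there. For 63 of the 83 members an annotated start and its sequence were found in a RefSeq promoter table (build GRCm38.p6, the assembly called mm10). Among the other 20 are Rpl21 and Rps29, which had a region at an end. Each line gives 60 bases before the start and the first 20 from it, 5′ to 3′ on the transcribed strand, and capitals mark the longest run of C and T that touches the 5 bases on either side of the start. The first 4 are the members with a region at an end whose run was 10 bases or longer. Rpl18 has a region after an annotated start inside its gene, Rpl37a has a region but a run of 3 bases, and Rpl7a and Rpl27a have long runs and no region at an end.
Fau (chr19:6057887-6057966, plus strand): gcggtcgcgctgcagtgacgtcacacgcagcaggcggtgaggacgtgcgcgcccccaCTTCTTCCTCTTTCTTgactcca
Rpl13a (chr7:45128726-45128805, minus strand): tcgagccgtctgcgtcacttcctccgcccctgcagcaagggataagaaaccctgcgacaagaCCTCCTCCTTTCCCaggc
Rpl28 (chr7:4792905-4792984, plus strand): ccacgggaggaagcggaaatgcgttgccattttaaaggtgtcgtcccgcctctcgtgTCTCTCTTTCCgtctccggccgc
Rps6 (chr4:86857348-86857427, minus strand): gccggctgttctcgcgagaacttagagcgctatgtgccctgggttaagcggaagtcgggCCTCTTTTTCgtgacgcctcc
Rpl18 (chr7:45718011-45718090, plus strand): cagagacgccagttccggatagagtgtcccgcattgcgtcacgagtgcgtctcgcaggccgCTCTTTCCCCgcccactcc
Rpl37a (chr1:72711200-72711279, plus strand): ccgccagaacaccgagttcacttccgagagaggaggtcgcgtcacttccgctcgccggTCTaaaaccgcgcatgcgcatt
Rpl7a (chr2:26910747-26910826, plus strand): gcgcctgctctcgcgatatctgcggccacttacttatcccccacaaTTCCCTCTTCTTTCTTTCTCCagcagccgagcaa
Rpl27a (chr7:109519135-109519214, plus strand): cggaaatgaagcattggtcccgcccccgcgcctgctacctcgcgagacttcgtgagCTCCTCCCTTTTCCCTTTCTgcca
The runs were 16 bases in Fau, 14 in Rpl13a, 11 in Rpl28, 10 in Rps6 and 10 in Rpl18, against 21 in Rpl7a and 20 in Rpl27a. A long run was thus found with and without a region. The run of Rpl7a began 14 bases before the annotated start, so a run is not by itself the tract of the messenger RNA.

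A fasting-enriched region overlapped the 1 kb on either side of a gene end in 14 of the 83 members, 16.9% (95% Wilson interval 10.3 to 26.3, counting error only), and in 11.9% of all protein-coding genes. With this window the background share lies within the interval of the members' share. The 14 were split evenly, 7 of 51 large subunit genes (13.7%, interval 6.81 to 25.7) and 7 of 32 small subunit genes (21.9%, interval 11 to 38.8), and these intervals overlap widely. No member had a region of the fed list within 3 kb of the gene, but that list holds only 1 region, so this says little about direction. The remaining 69 members, 44 of the large and 25 of the small subunit, had no region at an end. With a log-LR of at least 5 required, 11 members (13.3%) had a region at an end, against 5.90% of all protein-coding genes. Of the 11, Rps29 reached that limit only through a region over the RNA gene Rn7s1. With the window narrowed to 500 bp the count stayed at 14 members, against 9.55% of all. That background share lies below the interval of 10.3 to 26.3, which is unchanged at this count. A log-LR of at least 10 left 1 member, Rps29, against 0.183%. No difference from all protein-coding genes was tested at any setting.

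Among large subunit genes, the members with a region at an end were Rpl10a, Rpl11, Rpl13a, Rpl21, Rpl23, Rpl28 and Rpl37a. Rpl13a, whose product also takes part in translational silencing outside the ribosome, had the highest log-LR of these, 6.28, in a region of 141 bp at chromosome 7, 45128504 to 45128644. Rpl10a, a protein of the mobile L1 stalk beside the tRNA exit site, had a log-LR of 5.79 in the widest region of any member, 401 bp at chromosome 17, 28328863 to 28329263. Both regions lay wholly inside their genes. Rpl37a, a small zinc-binding protein, had 5.61 (chromosome 1, 72711480 to 72711697), and Rpl23, which lies at the interface of the subunits, 5.32 (chromosome 11, 97781914 to 97782044). Rpl21 had 5.55 in a region from 146832848 to 146832993 of chromosome 5 that spans the lower-coordinate end of the gene. Rpl11 was the large subunit gene with more than 1 region. Its product binds 5S ribosomal RNA together with that of Rpl5 and can inhibit the p53 ligase Mdm2. The region nearer the start of Rpl11 had a log-LR of 5.20 (chromosome 4, 136053055 to 136053196) and the one farther inside 4.35 (136052508 to 136052640). Rpl5 had no region at an end, and its nearest region was 31.2 kb away. Rpl28, a protein that budding yeast lacks, had the lowest value of the large subunit, 4.04 (chromosome 7, 4793015 to 4793207).

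Among small subunit genes, the members with a region included Fau, Rps6, Rps16, Rps21, Rps23 and Rps29. Rps23, which lies at the decoding centre, had a log-LR of 6.45 (chromosome 13, 90923230 to 90923424). Fau, which encodes ribosomal protein S30 fused to a ubiquitin-like protein, had 6.35 (chromosome 19, 6058410 to 6058560). Rps21 followed with 5.99 (chromosome 2, 180257521 to 180257685). Lower values were found at Rps16, whose tail reaches the tRNA in the peptidyl site, with 4.13 (chromosome 7, 28350843 to 28351112), and at Rps6, with 3.82 (chromosome 4, 86856767 to 86856924). Rps6 is the ribosomal protein that S6 kinases phosphorylate downstream of mTOR, and its region was the lowest of all 16 member regions, at rank 7287 of 8404.

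Rps29, a small zinc-binding protein gene, had the highest value of any member, and that value lies over another gene. Its first region, with a log-LR of 4.84 (chromosome 12, 69158670 to 69158845), was inside Rps29. The second, with 31.7 (69159288 to 69159550), was outside it by 102 bp and shared 256 of its 263 bp with Rn7s1, a gene for the 7SL RNA of the signal recognition particle (69159295 to 69159593). Rn7s2, another 7SL gene, and Rn7sk, the gene for 7SK RNA, also had a region, with 4.47 and 39.3. Without regions over non-coding RNA genes Rps29 still had its first region. The only other member region over such a gene was that of Rps21, which overlaps the microRNA gene Mir3091. Thus 2 of 16 member regions overlapped a non-coding RNA gene, against 7.80% of all regions at protein-coding gene ends. Leaving out all regions over such genes gave 13 members with a region and 11.1% of all protein-coding genes. None (0) of the 16 member regions overlapped a snoRNA gene, a share not counted over all regions. At least 1 snoRNA gene lies inside 29 members, and few of these had a region at an end. Members with a snoRNA gene had a region at an end in 4 of 29 (13.8%) and those without in 10 of 54 (18.5%), a difference that was not tested.

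The members' values were set beside those of all regions at protein-coding gene ends. The 16 member regions, including the one over Rn7s1, had a median log-LR of 5.58 with quartiles of 4.72 and 6.30. Without regions over non-coding RNA genes the median of member regions was 5.43. All 2474 regions at protein-coding gene ends had a median of 4.94 with quartiles of 4.18 and 6.07, and 11 of the 16 member regions lay at or above that median. Member regions were 131 to 401 bp wide with a median of 170.5 bp, against 205 bp for all regions at protein-coding gene ends.

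**Figure D1:**
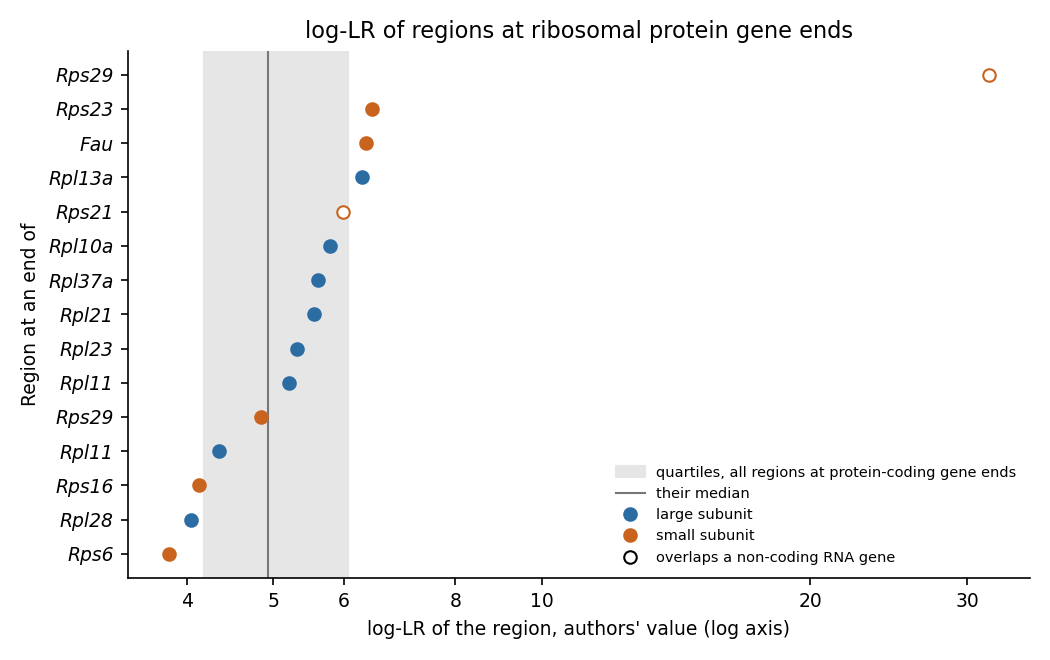
Each point is a fasting-enriched region at an end of a ribosomal protein gene named in the text, on a log axis of the authors' log-LR, with the grey band and line giving the quartiles (4.18 and 6.07) and median (4.94) of all regions at protein-coding gene ends. The point at 31.7 is the region over Rn7s1 beside Rps29, and the others shown lie between 3.82 and 6.45.

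The regions sat on the transcribed side of the start. Of the 63 members with an annotated start, 13 had a region overlapping the 1 kb around a start, 20.6%, against 13.2% of the 17492 protein-coding genes with one. Only 2 had a region within 1 kb of the downstream end of the gene (0.863% of all), Rps21 and Fau. Both genes are under 2 kb long, so the same region fell in the windows of both ends. Centres of the 14 regions at member starts had a median distance of 278 bp after the start, and 13 of the 14 lay after it, from 146 bp at Rpl28 to 819 bp at the inner region of Rpl11. Of the 14, 10 were centred 100 to 500 bp after the start. Regions nearest any protein-coding start had a median distance of 265.8 bp, quartiles of 129.4 and 417.5 bp, 84.5% after the start and 61.5% centred 100 to 500 bp after it. No difference in place was tested.

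**Figure D2:**
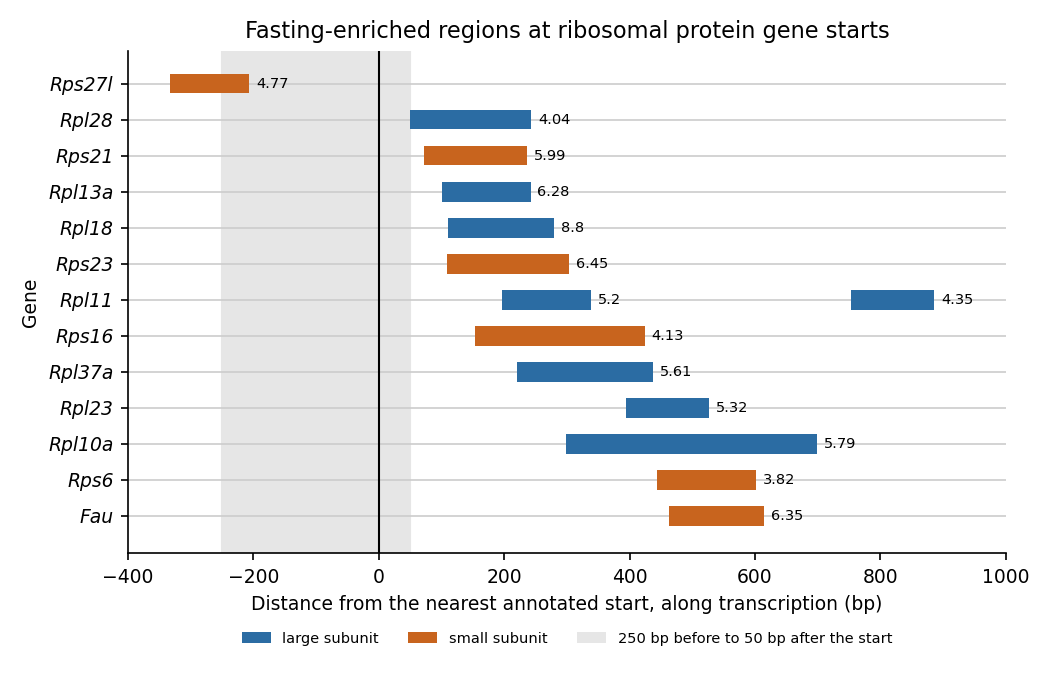
Bars show the 14 regions at starts of 13 ribosomal protein genes by their distance in bp from the nearest annotated start along transcription, with the log-LR printed beside each; the grey band is the stretch from 250 bp before to 50 bp after the start. All but the region of Rps27l begin after that band.

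The stretch from 250 bases before to 50 after the start held a part of 1 of the 14 regions, that of Rps27l. It held a part of 25% of the 2262 regions nearest a protein-coding start, a contrast that was not tested. The region of Rpl28 began at the first base beyond this stretch, 50 bp after the start. Those of Rps21 (72 bp), Rpl13a (101 bp), Rps23 (108 bp) and Rpl18 (111 bp) began next. Regions at Rpl23, Rps6 and Fau began 395, 443 and 463 bp after the start. The gene table used here does not separate exons from introns.

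**Figure D3:**
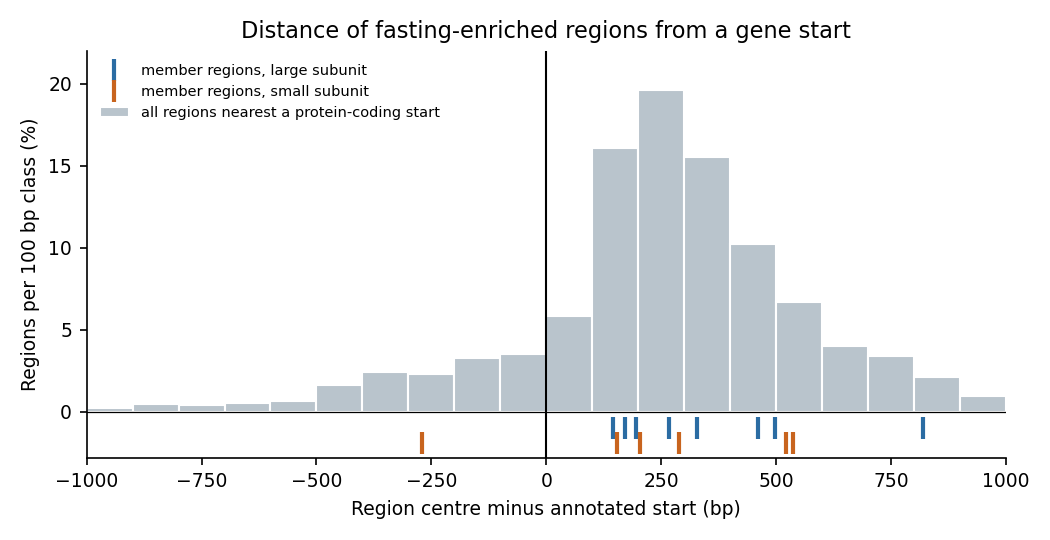
Grey bars give the percentage of the 2262 regions nearest a protein-coding start in each 100 bp class of distance (region centre minus start, in bp), and ticks below mark the 14 regions at member starts. Ticks gather between 146 and 538 bp, where the bars are also high, with 1 tick before the start (Rps27l) and 1 at 819 bp (Rpl11).

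For 3 members a region lay inside the gene but over 1 kb from either end. At Rpl18 the region had a log-LR of 8.80 (chromosome 7, 45718182 to 45718349), higher than any member region at an end except the one over Rn7s1. It lay 2486 bp from the nearer gene end but began 111 bp after the annotated start, and it also fell within 1 kb of an end of Sphk2, a sphingosine kinase gene. Rps27l encodes a p53-inducible paralog of Rps27, and its region of 4.77 (chromosome 9, 66945753 to 66945878) was 1129 bp from the nearer end and centred at -270.5 bp from an annotated start, that is, before it. At Rpl17, a protein beside the exit tunnel, the region of 4.60 (chromosome 18, 75000852 to 75000997) lay 1874 bp from the nearer end. Counted with annotated starts, Rpl18 and Rps27l bring the members with a region to 16 of 83. The share over all protein-coding genes was not counted under that wider rule, so 16 of 83 cannot be set against the 11.9% at gene ends. Over the gene body with 1 kb on either side the count was 17 of 83, against 18.1% of all protein-coding genes, whose bodies are longer. Another 3 members had a region outside the gene within 3 kb, each over a neighbour. These were Rpl7a at 2682 bp (over Surf1), Rpl23a at 2267 bp (over Tlcd1) and Rpl24 at 2832 bp (over Zbtb11).

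Some member regions were shared with another protein-coding gene. The region of Rps21 also lay at an end of Cables2 and that of Fau at an end of Mrpl49, which encodes a protein of the mitochondrial ribosome, so 2 of 16 member regions were shared, against 14.7% of all regions at protein-coding gene ends. Leaving out shared regions gave 12 members, against 8.85% of all protein-coding genes. Of the 14 members with a region, 2 (Rpl11 and Rps29) had more than 1, against 8.13% of all protein-coding genes with a region.

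Several well-known members had no region at an end. The 3 stalk protein genes Rplp0, Rplp1 and Rplp2, which recruit translation factors to the large subunit, had none, nor did Rpsa, which encodes the laminin receptor protein of the small subunit. Rps27a, which encodes a ubiquitin fusion like Fau, had none either, and its nearest region was 93.6 kb away. None (0) of the 6 members whose symbol ends in l had a region at an end. The share over all protein-coding genes was 11.9%, and 6 genes are too few to place against it. The 6 were Rpl3l, Rpl10l, Rpl32l, Rpl36al, Rpl39l and Rps27l, and they include copies used mainly in muscle or testis. Rps27l has the region inside its gene described above. None (0) of the 4 members on chromosome X (Rpl10, Rpl36a, Rpl39 and Rps4x) had one either. Of all 966 protein-coding genes on that chromosome, 7 had such a region, 0.725%. Chromosome 7 holds the most members, 14, of which 4 had one, including Rpl13a, Rpl28 and Rps16, against 8.33% of all protein-coding genes there. The median distance from a member without a region at an end to the nearest fasting-enriched region was 77.5 kb, against 88.3 kb for all protein-coding genes without one.

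Members are short, and those with a region were no longer than the rest. The median length was 2528 bp with a region and 3230 bp without, within a range of 592 to 11774 bp over all members. Among all protein-coding genes the genes with a region were the longer ones, with a median of 27340 bp against 17170 bp for all. The 14 members of at most 2 kb, for which the windows of both ends cover the whole gene, had a region in 5. The share over all protein-coding genes of that length was 3.45%, and the difference was not tested. Among the 5, Rps21 and Fau share their region with an end of Cables2 and of Mrpl49.

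Processed copies of the members were also examined. Of 318 pseudogenes named after a ribosomal protein gene, 3 (0.943%) were overlapped by a region, against 1.23% of all 10429 annotated pseudogenes. They included Rps15-ps2 (log-LR 9.36) and Rpsa-ps10 (5.56), whose parent genes Rps15 and Rpsa had no region at an end. How the authors assigned reads from near-identical copies is not stated in the labels or file headers.

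The members' promoters were also examined for base composition and motifs. The 75 promoter sequences of the 63 members (250 bases before to 50 after the start) had a median ratio of observed to expected CpG of 0.868, against 0.384 over all 32851 promoters of the same length and 0.567 over protein-coding ones. A run of at least 5 pyrimidines touching the 5 bases on either side of the start was found in 50.7% of member promoters and 32.9% of all. CTTTCC within 20 bases of the start on the transcribed strand was found in 14.7% against 1.95%. Over protein-coding promoters these shares were 32.7% and 1.86%. In members with a region at a gene end these shares were 53.8% and 15.4% of 13 promoters, and in members without one 50% and 14.5% of 62. The 13 promoters belong to 11 genes. Rps21 and Rpl10a each have 2 annotated starts, whose overlapping sequences count separately, and some genes of the second group also have several starts. The second group includes the promoters of Rpl18 and Rps27l, whose regions lie near an annotated start but not within 1 kb of a gene end. The other motifs were searched on both strands. The ETS factor motif CCGGAAG was in 34.7% of member promoters and 8.86% of all. Its core GGAAG, which it contains, was in 93.3% and 71.4%. The YY1 motif AAGATGGC was in 10.7% and 2.75%. Its core GCCAT, which overlaps it on the other strand, was in 56.0% and 40.5%. The cyclic AMP response element TGACGTCA was in 8% and 1.79%, and the E-box CACGTG in 10.7% and 7.15%. The SP and KLF factor motif GGGCGG was in 58.7% and 35.7%, and the TATA box TATAAA in 9.33% and 13.6%. Over protein-coding promoters the shares were 11.6% for CCGGAAG, 72.4% for GGAAG, 3.05% for AAGATGGC and 38.8% for GCCAT. They were 2.23% for TGACGTCA, 7.84% for CACGTG, 46.2% for GGGCGG and 12.6% for TATAAA. On the forward strand alone, GGGCGG was in 29.3% of member and 30.8% of protein-coding promoters, and TATAAA in 8% and 8.26%. CCGGAAG was there in 22.7% and 6.3%, GGAAG in 52% and 48.2%, GCCAT in 41.3% and 21.9%, and AAGATGGC in 2.67% and 2%. Between the same groups of members, CCGGAAG was in 30.8% and 35.5%, GGGCGG in 61.5% and 58.1%, GCCAT in 30.8% and 61.3%, and AAGATGGC in 15.4% and 9.68%. With 13 promoters in the first group these shares are a description only, and a match is not a site of binding.

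Other genes of the ribosome and its control were counted by the same rule. Of 5 ribosomal proteins under other symbols and paralogs, 2 had a region, among them the paralog Rpl22l1 (log-LR 5.01), while the small subunit genes Rack1 and Rps3a1 had none. Mitochondrial ribosomal protein genes had a region in 12 of 78 (15.4%), led by Mrps34 (8.02, shared with Eme2 and Nme3), Mrpl36 (6.72) and Mrpl49 (6.35, the region of Fau). Ribosome assembly and RNA polymerase I genes had one in 6 of 44 (13.6%). Rrn3, the polymerase I initiation factor, had 9.16, Ncl, which encodes nucleolin, 8.32, Nop2 6.33 (shared with Iffo1) and Gtpbp4 6.24. The shares of the mitochondrial and the assembly list lie near the 11.9% of all protein-coding genes, and the list of 5 genes is too short to place.

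Larger shares were counted in 2 short lists. Of 20 other genes whose messenger RNAs begin with a pyrimidine tract, 9 had a region (45%, interval 25.8 to 65.8). Among them were the elongation factor gene Eef1a1 (log-LR 8.69) and the initiation factor genes Eif4b (5.47), Eif3h (5.30) and Eif4a2 (4.94). Of 14 regulators of ribosomal protein translation, 7 had one (50%, interval 26.8 to 73.2). Eif4ebp2 (8.38) and Eif4ebp1 (7.61), whose products block the cap-binding protein, led this list, followed by Tsc1 (5.86) and Rptor (5.79). Neither Larp1, which binds the pyrimidine tract, nor Mtor itself had a region at an end. With a log-LR of at least 5 required the counts fell to 3 of 20 and 4 of 14, against 5.90% of all protein-coding genes, and mitochondrial ribosomal protein genes to 5 of 78, while ribosome assembly and RNA polymerase I genes stayed at 6 of 44. With a window of 500 bp the counts of the 2 short lists were 6 of 20 and 6 of 14, against 9.55% of all. All these lists were drawn up with earlier results on mTOR pathway genes in these data known, and no difference between lists was tested. None (0) of the 6 Rps6ka genes, which encode kinases and not ribosomal proteins, had a region.

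**Figure D4:**
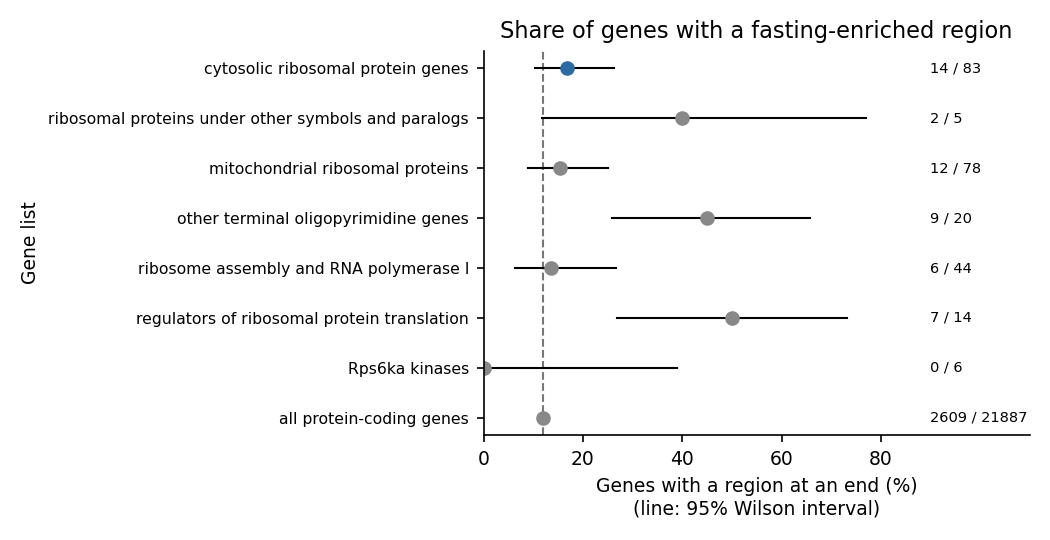
Points give the percentage of genes in each list with a fasting-enriched region within 1 kb of an end, lines the 95% Wilson interval, and the figures at the right the counts; the dashed line is the share of all protein-coding genes, 11.9%. The interval of ribosomal protein genes (14 of 83) spans that line at this window. The intervals of the 2 short lists at 45% and 50% lie to its right. The lists were drawn up with earlier results of these data known, and no difference was tested.

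Markers of the cell types that cortex homogenate can hold were counted too. Of 30 marker genes in 8 lists (excitatory and inhibitory neurons, astrocytes, oligodendrocytes, microglia, endothelium, blood and liver), 2 had a region at an end, the oligodendrocyte genes Mbp (log-LR 6.61) and Cnp (6.52). The lists name regions that differ between the feeding states, so a marker without a region is not shown to lack the mark, and the tissue label could not be checked in this way. In homogenate, a change in the share of a cell type and a change in the mark per cell cannot be told apart.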

How the data were processed

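Chromatin from occipital cortex was immunoprecipitated with an antibody to H3K9bhb, per the labels' protocols. Per the submitters' processing notes, Bowtie2, MACS2 and build mm10 were used, with no version or role given for each. Per the file headers, each region in the deposited lists has a log-LR, treated here as a score. How libraries were pooled, scaled and filtered is not given in the sources used here.

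Starts were read as counted from 0, and coordinates are given from 1. A region counted for a gene when at least 1 bp of it lay within 1 kb of a gene end in a RefSeq table of GRCm38.p6. Annotated starts and promoter sequences came from a RefSeq promoter table of that assembly. A region was assigned to its nearest start by its centre. Motifs were matched as exact letters. The members and lists were chosen with earlier results of these data known, so no set test or resampling was run. Members with a region are named, apart from results not reported here, and other lists by highest log-LR, up to 4 genes. The listed symbol Gnb2l1 is an older name of Rack1 and was not counted. The overlap rule was tested on simulated data. Alternatives were other windows and overlap rules, log-LR limits, merged regions and other member rules. Python 3.11.15, numpy 2.4.6, pandas 2.3.3 and matplotlib 3.10.9 were used.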

Additional observations from a re-analysis of the deposited data

How the results depend on the processing

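Over 41 alternatives to the counts and medians, 34 stayed within 1.5 times the reported count or, for the median log-LR, within the quartiles of the member regions. The number of members with a region at an end was 14 with a window of 500 bp, by the region's centre, with 50% of the region in the window, with merged regions and without paralogs ending in l. Leaving out those paralogs could not change the number, as none has a region at an end, and merging could not lower it. Settings that could not change a count are among the 34. Only the counts and medians are compared in this way. The share over all protein-coding genes fell from 11.9% to 9.55% at 500 bp, and to 5.90% at a log-LR of at least 5. The number of members was 20 with a window of 3 kb (14.7% of all protein-coding genes), 15 with ribosomal proteins under other symbols added, and 1 at a log-LR of at least 10 (0.183% of all), the region over Rn7s1. With 3 kb, 12 large subunit genes and 1 Rps6ka kinase gene had a region. At a log-LR of at least 5, counts were 1 for ribosomal proteins under other symbols, 5 for mitochondrial ribosomal proteins, 3 for other pyrimidine-tract genes and 4 for regulators of translation. That limit leaves fewer regions by construction. The median log-LR of member regions ranged from 5.29 with 3 kb to 5.70 with merged regions. Forward-strand searches lowered the counts of 6 of the 8 motifs and left those of the palindromes TGACGTCA and CACGTG as they were. No paired analysis was possible because neither list holds values of single libraries, and for the same reason no replicate was left out.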
